A study of Mus musculus with 2 samples.

Results

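The interferon regulatory factors (IRFs) described here are 8 genes of 32432 in the count matrices, Irf1, Irf2, Irf3, Irf4, Irf5, Irf7, Irf8 and Irf9, taken by symbol and not by any measured value. Their UMIs (unique molecular identifiers, 1 per captured transcript) were followed through 11 leukocyte types and both genotypes. IRFs are transcription factors that bind GAAA-containing interferon-response DNA through a shared DNA-binding domain. Irf3, Irf5 and Irf7 are switched on by kinases downstream of nucleic-acid sensors and drive interferon genes, Irf9 carries the interferon receptor signal to DNA within the complex ISGF3, Irf1 activates and Irf2 restrains interferon-response promoters, and Irf4 and Irf8 direct the development of lymphoid and myeloid lineages. In tumours, cytosolic DNA sensed by cGAS and STING is a known route to Irf3 and Irf7, and Trex1 is the exonuclease that degrades such DNA.

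The cells were live CD45+ leukocytes sorted from B16-F10 melanomas, a transplantable mouse melanoma line, grown in the skin of male mice aged 8 to 12 weeks. The Trex1 iKO group was Trex1 fl/fl R26CreERT2 and the Trex1 control group was Trex1 wt/fl R26CreERT2. Controls therefore had 1 wild-type and 1 floxed allele, and the floxed allele was open to the same tamoxifen-induced Cre. R26 is a broadly active locus, so the host deletion is not limited to leukocytes, and the implanted tumour cells are a separate line. Mice of both groups had 1000 tumour cells in Matrigel placed on both legs, were given 1 mg tamoxifen on 3 days from day 5, and were sampled on day 14.

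Each genotype gave 4 hashtagged samples that were run as a single pool, so a difference between genotypes cannot be told apart from a difference between pools. Whether a hashtagged sample is a single mouse is not stated, and p-values measure only the spread between these samples. Of 23731 barcodes, 22051 were kept, and the median UMIs per cell ran from 12535.5 to 14221 over iKO samples and from 5794 to 11490 over controls. In all, 45 barcodes occurred in both pools and 0 in more than 1 sample of a pool. Trex1 itself had 0 UMIs in iKO and 2 in control over all kept cells, and 100% of its last 300 bases lie in exons of Atrip on the same strand (GENCODE vM21), so its loss could not be checked here. For the 8 IRFs that overlap was 0%.

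Cell types were set by marker gates that used no IRF and no interferon-stimulated gene, and 16898 cells (76.6% of those kept) fell into a gate. They comprised 4915 CD8 T cells, 668 CD4 T cells, 633 regulatory T cells (Treg), 163 NK cells, 771 B cells, 143 plasmacytoid dendritic cells (pDC), 192 cDC1, 118 cDC2, 469 mature dendritic cells (mature DC), 7550 monocytes/macrophages and 1276 neutrophils. Every iKO sample had a larger gated share than every control sample. It ran from 1054 of 1697 kept cells in control sample 2 to 3150 of 3792 in iKO sample 1. Cells in no gate had a median of 10536 UMIs in iKO and 5522 in control, and the part of depth in the gated shares was not tested. The counts were uneven between samples: iKO samples 1 and 2 held 1226 and 2399 of the CD8 T cells, and control sample 3 held 404 of the 545 control B cells. Free RNA from other cells was present: Lyz2, a myeloid lysozyme gene, stood in CD8 T cells at 1.18% to 2.15% of its level in monocytes/macrophages of the same sample, and C1qa at 1.48% to 2.92%.

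The stretches before the transcription start were read for 2 short elements through which interferons act, since several members are themselves interferon targets. The letters searched were GAAANNGAAA, a core of the interferon-stimulated response element (ISRE) bound by ISGF3 and IRFs, and TTCNNNGAA, the gamma-activated site (GAS) bound by STAT dimers, on both strands. All 8 members matched the RefSeq promoter table by symbol (build GRCm38.p6, 11 start sites, the 250 bases before each). The stretches that hold a match, and the 60 bases before the Irf7 start, are shown to compare the members at the level of sequence. Capitals mark the matched letters of the element named on each line:
Irf1, GAS, chr11:53769899-53769957, plus strand: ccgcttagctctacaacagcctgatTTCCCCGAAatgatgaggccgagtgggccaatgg
Irf8, GAS, chr8:120736162-120736238, plus strand: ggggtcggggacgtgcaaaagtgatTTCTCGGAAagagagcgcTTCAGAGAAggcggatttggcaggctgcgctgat
Irf2, ISRE, chr8:46739495-46739538, plus strand: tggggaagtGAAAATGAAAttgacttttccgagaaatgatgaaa
Irf7, no match, chr7:141266425-141266484, minus strand: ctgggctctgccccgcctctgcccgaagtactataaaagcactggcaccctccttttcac
The Irf1 GAS match began 90 bases before the start (position -90), and those of Irf8 at -171 and -153. In Irf2 the ISRE match began at -241 and a GAS match at -224, inside the printed stretch. In all, 3 of the 8 genes had a GAS match and 1 an ISRE match. Counted by window, GAS matched in 3 of the 11 IRF windows and ISRE in 1 of 11. Over all 32851 promoter windows of that length, 7.02% held the GAS letters and 2.98% the ISRE letters. Irf3, Irf4, Irf5, Irf7 and Irf9 had neither in these windows, which says only that these letters are not there.

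In the control samples each member had its own distribution over the types. Values are CPM, the UMIs of a gene scaled to a common total of the type's UMIs in a sample with edgeR's TMM factors, and types are ordered by their mean over samples. Profiles of at least 5 cells entered this description, which left 3 control samples for NK cells and pDC. Because each transcript is counted once at its 3' end, no correction for gene length applies.

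Irf8, which is required for cDC1 and pDC development, spanned the widest range. Its control mean was 2601 CPM in pDC, 1678 in cDC1, 604 in NK cells, 533 in mature DC, 205 in B cells and 187 in CD8 T cells, and it fell to 16.8 in neutrophils. The pDC samples (2083 to 3442 CPM) did not overlap the cDC1 samples (1410 to 1833), and these did not overlap the NK samples (438 to 815). B cells, CD8 T cells and monocytes/macrophages followed with overlapping samples. In cDC2, the dendritic lineage that depends on Irf4, Irf8 was at 46.2 CPM and Irf4 at 33.6.

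Irf4, an activation-induced factor of lymphocytes, was highest in B cells (38.7 CPM in control, 24.3 to 60.7 over samples), pDC (36.9) and cDC2 (33.6), and these overlapped. The pDC mean rested on few cells: control sample 1 read 89.0 CPM from 5 cells and control sample 2 read 0 from another 5. Treg, mature DC and CD8 T cells lay between 15.8 and 17.9 CPM. In neutrophils only 4 control UMIs and 1 iKO UMI were seen, and in NK cells 1 and 0, so the gene was at the limit of counting there.

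Irf5, a mediator of Toll-like receptor signals in myeloid cells, was a dendritic and monocyte/macrophage transcript. Control means were 266 CPM in cDC1, 162 in mature DC, 152 in cDC2 and 148 in monocytes/macrophages, against 69.0 in pDC, 63.5 in B cells and 14.5 in CD8 T cells. The cDC1 samples (230 to 310) stood above those of mature DC (131 to 187) without overlap, and monocytes/macrophages (133 to 166) above pDC (66.5 to 71.2). Within a control sample the CD8 T level was 6.48% to 11.7% of the macrophage level, above the Lyz2 and C1qa figures given above. With each cell thinned to 3000 UMIs, 2.61% of control CD8 T cells had an Irf5 UMI, against 7.15% for C1qa and 43.6% for Lyz2. The part of free RNA in the CD8 T level of Irf5 was not tested.

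The remaining members were spread more evenly. Irf2 was highest in B cells (307 CPM, 274 to 356), which did not overlap the following type, monocytes/macrophages (182 to 216), and lowest in mature DC (92.5) and cDC1 (90.1). Irf1 ran from 199 CPM in mature DC to 32.1 in B cells, with every neighbouring pair of types overlapping. Irf3, the constitutively made partner of Irf7, ran from 52.6 CPM in CD4 T cells to 21.4 in monocytes/macrophages. Irf9 lay between 45.4 and 61.1 CPM in 10 types and at 26.5 in CD8 T cells. Irf7 in control was 139 CPM in pDC, a cell type known for constitutive Irf7, 115 in monocytes/macrophages, 99.2 in cDC2 and 14.9 in CD8 T cells, and all neighbours in that order overlapped.

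**Figure D1:**
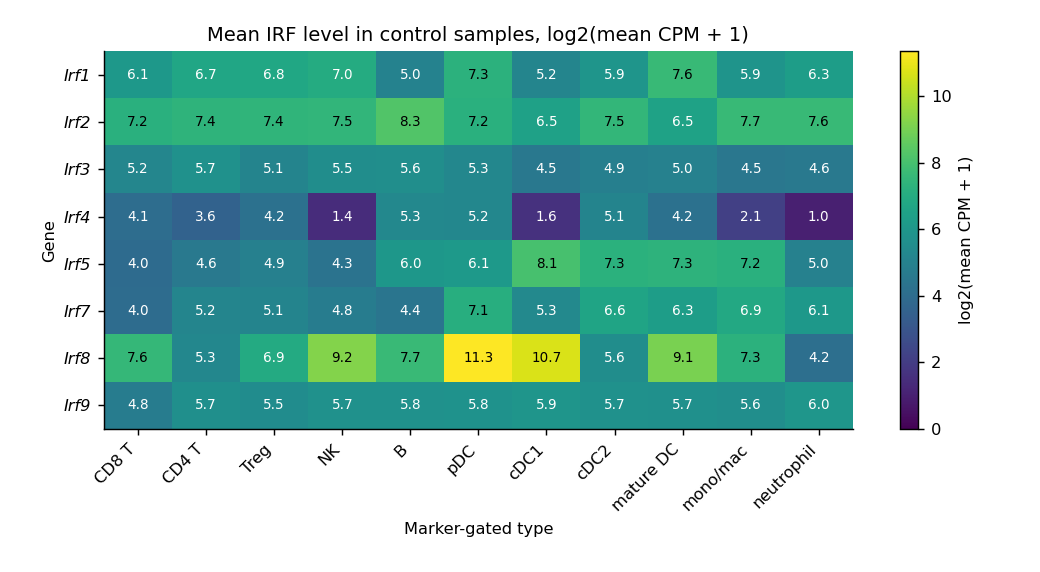
Mean level of each IRF gene (rows) in each marker-gated type (columns) over the control samples, as log2(mean CPM + 1), with the colour and the printed figure giving the same value. Irf8 stands out in pDC and cDC1 (2601 and 1678 CPM), Irf5 in cDC1 (266 CPM) and Irf2 in B cells (307 CPM), while Irf4 is lowest in neutrophils, NK cells (1.73 CPM) and cDC1 (2.10 CPM).

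The genotypes were then compared within the 7 types that had at least 20 cells in at least 3 samples per genotype, with edgeR's quasi-likelihood test on all genes of a type and a threshold of 0.05 on the Benjamini-Hochberg adjusted p. Of 53 tested pairs of an IRF and a type, 10 were higher in iKO and 0 lower. Irf7 rose in 6 types, Irf9 in 2, and Irf1 and Irf8 in 1 each, while Irf2, Irf3, Irf4 and Irf5 passed in none. For comparison, the share of all tested genes that changed in either direction was 3.82% in CD8 T cells (3 of 8 IRFs), 1.46% in CD4 T cells (2 of 7), 2.36% in Treg (1 of 8), 3.11% in B cells (1 of 7), 0.265% in mature DC (0 of 8), 10.5% in monocytes/macrophages (2 of 8) and 2.96% in neutrophils (1 of 7). In the sum of all kept cells, where 2.59% of genes changed, Irf7 and Irf9 rose. A sum over cells cannot tell more expressing cells from more RNA per cell, and the sum of all kept cells also moves with the mix of types.

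**Figure D2:**
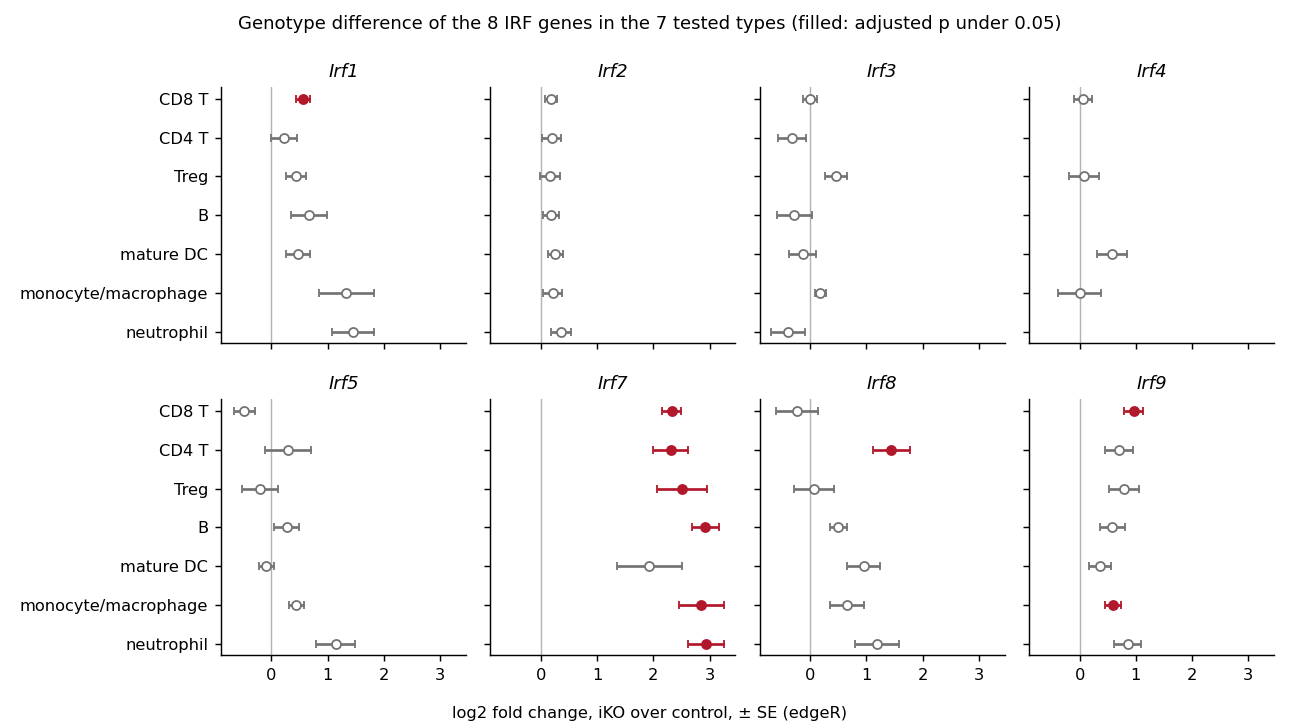
Log2 fold change of iKO over control with its standard error (x axis) for the 8 IRF genes (panels) in the 7 tested types (rows), filled red where the edgeR adjusted p was under 0.05; Irf4 was below the low-count filter in CD4 T cells, B cells and neutrophils and has no point there. Irf7 lies between 1.93 and 2.94 in every type, and the highest estimates of the other genes are those of Irf1 in neutrophils (1.45) and Irf8 in CD4 T cells (1.44).

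Irf7, the interferon-inducible amplifier of type I interferon production, was the member that moved in most types. In monocytes/macrophages iKO samples 1 to 4 read 1109, 1203, 454 and 535 CPM. The controls, in the same order of numbers, read 153, 116, 133 and 56.2 CPM. Every iKO sample was above every control sample, and iKO samples 1 and 2 were well above iKO samples 3 and 4. The log2 fold change was 2.85 ± 0.40 (SE, adjusted p = 0.00657).

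CD8 T cells had far less Irf7 in both genotypes, with 66.0, 74.3, 86.9 and 91.9 CPM in iKO and 19.4, 14.4, 14.4 and 11.5 in control. The groups did not overlap, and here iKO samples 3 and 4 were the highest. The log2 fold change was 2.33 ± 0.17 (SE, adjusted p = 0.000174). As a share of the monocyte/macrophage level of the same sample, CD8 T Irf7 was 5.95% to 19.1% in iKO and 10.8% to 20.5% in control, above the corresponding Lyz2 shares of 1.21% to 1.48% and 1.18% to 2.15%.

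CD4 T cells read 226, 281, 115 and 127 CPM in iKO and 51.8, 34.7, 37.0 and 16.4 in control, again without overlap (2.31 ± 0.31, adjusted p = 0.00186). In Treg the values were 229, 250, 133 and 66.9 against 70.5, 26, 18.0 and 21.3 CPM (2.51 ± 0.45, adjusted p = 0.0126). Here the groups met, because iKO sample 4 was just below control sample 1. The Treg call was lost without control sample 2 (adjusted p = 0.0918) or control sample 3 (0.0589). B cells, the lymphocytes with the smallest adjusted p, went from 12.2, 30.4, 28.1 and 10.0 CPM in control to 167, 145, 215 and 215 in iKO. That is a log2 fold change of 2.92 ± 0.24 (SE, adjusted p = 3.63e-08), with the lowest iKO sample well above the highest control sample.

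Neutrophils read 476, 567, 657 and 301 CPM in iKO and 45.8, 90.1, 84.2 and 42.2 in control (2.94 ± 0.32, adjusted p = 0.000282). The groups were fully apart. The mean log2 TMM factor of iKO minus control was -0.18 in neutrophils and -0.04 to 0.07 in the other types. CPM are divided by this factor, so in neutrophils the scaling raised iKO values against control. Mature DC, which migrate with tumour antigen, were the tested type where Irf7 did not pass in the main analysis. They read 488, 492, 109 and 99.4 CPM in iKO and 118, 64.1, 112 and 25.5 in control (1.93 ± 0.58, adjusted p = 0.216). Samples 1 and 2 of iKO were high and samples 3 and 4 fell inside the control range.

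No IRF passed in mature DC, where edgeR called 16 of 6032 genes, 727 had an unadjusted p under 0.05 and DESeq2 called 84 genes. DESeq2 placed Irf8 among them (adjusted p = 0.0323). Without a low-count filter edgeR called 247 of 15223 genes in mature DC, among them Irf7 (1.96, adjusted p = 8.56e-07) and Irf8 (0.99, adjusted p = 7.64e-05). Over the 15 alternative analyses, which included leaving out each sample, DESeq2, thinning of cells to equal depth and cell types from clusters, the Irf7 call was kept in CD8 T, CD4 T, B, monocyte/macrophage and neutrophil profiles in all 15.

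**Figure D3:**
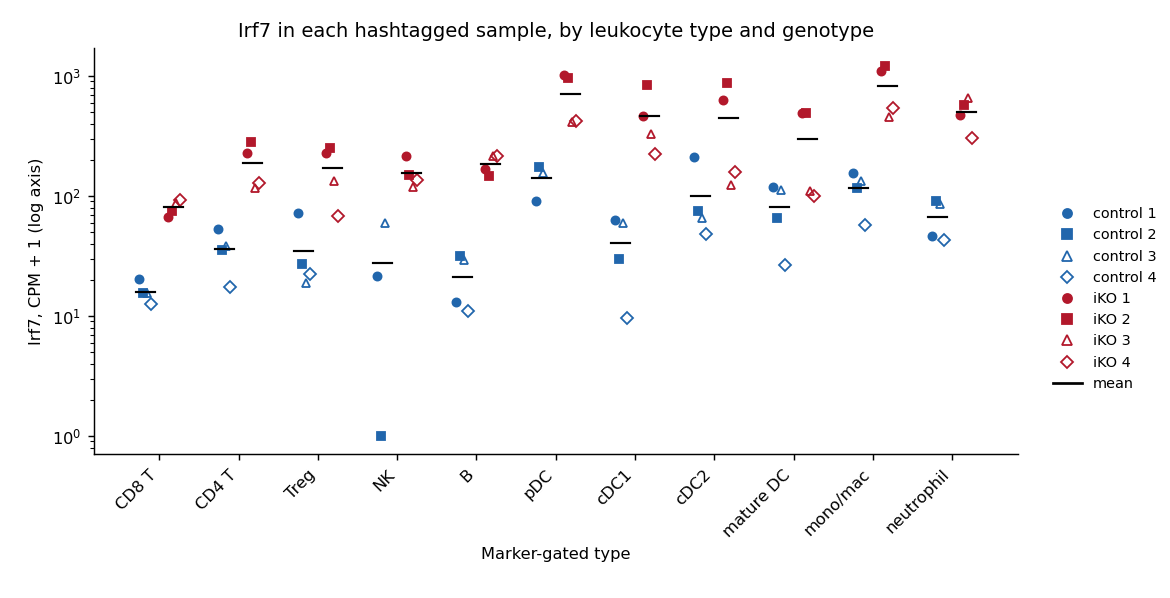
Irf7 level (y axis, CPM + 1 on a log axis) in each hashtagged sample, by marker-gated type (x axis), with control in blue, iKO in red, a symbol per sample number and a black line at the group mean. The iKO samples lie above all control samples in every type but Treg, cDC2 and mature DC, and iKO samples 1 and 2 are the highest in monocytes/macrophages and the dendritic types, while iKO sample 3 is the highest in neutrophils.

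The scarcer types were fitted from profiles of at least 5 cells, an alternative chosen after the cell numbers were seen. Irf7 was higher in iKO in NK cells (1 of 4 IRFs tested, against 0.998% of all genes), pDC (1 of 7, against 0.302%) and cDC1 (1 of 7, against 2.21%), and no IRF passed in cDC2 (0 of 6, against 0.115%, where edgeR called 4 genes, 284 had an unadjusted p under 0.05 and DESeq2 was not run). The cDC1 values were 466, 838, 326 and 221 CPM in iKO and 61.8, 29.0, 58.4 and 8.62 in control, a log2 fold change of 3.57 ± 0.46 (SE, adjusted p = 0.000770). In pDC the iKO samples read 1028, 961, 412 and 421 CPM and the 3 control samples 89.0, 173 and 155 (2.25 ± 0.36, adjusted p = 0.00679). Both dendritic types showed full separation of the genotypes. NK cells read 214, 149, 118 and 134 against 20.7, 0 and 58.9 CPM (2.25 ± 0.45, adjusted p = 0.0230), on 13 control UMIs in all. In cDC2, iKO samples 1 and 2 (632 and 868 CPM) were above all others, and samples 3 and 4 (123 and 157) lay inside the control range of 47.2 to 210.

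Counted per cell, Irf7 was set side by side as the share of cells with a UMI and as the UMIs each such cell held. Cells were thinned to 3000 UMIs and shallower ones left out, which removed more control than iKO cells in neutrophils (156 of 968 against 18 of 308) and B cells (60 of 545 against 6 of 226). At this depth, 76.4% ± 13.1 of monocytes/macrophages had an Irf7 UMI in iKO and 21.2% ± 6.10 in control (SD, n = 4 each; exact permutation p = 0.0286, the smallest that 4 against 4 allows, adjusted 0.0762). Without thinning the shares were 95.9% and 50.1%. Thinned cells that had the gene held 3.44 UMIs on average in iKO and 1.64 in control, a difference that was not tested. Neutrophils went from 15.0% ± 5.25 to 60.0% ± 11.5, B cells from 6.98% ± 2.34 to 34.6% ± 7.37, and CD8 T cells from 5.64% ± 2.26 to 23.5% ± 2.30 (exact permutation p = 0.0286 each, adjusted 0.229, 0.229 and 0.114). In all these types every iKO sample was above every control sample, but no adjusted p was under 0.05. The thinned shares overlapped in Treg (19.0% to 42.2% in iKO against 3.70% to 22.9%) and in mature DC (13.9% to 46.7% against 2.82% to 23.3%). As a gauge of free RNA at the same depth, 32.4% of iKO and 43.6% of control CD8 T cells had a UMI of Lyz2, and 4.48% and 7.15% one of C1qa, a macrophage gene. In B cells the Lyz2 shares were 45.5% and 68.2% and the C1qa shares 7.79% and 18.6%. The iKO shares of Irf7 in CD8 T and B cells lay between those of C1qa and Lyz2 and the control shares below both, so none of them is read as expression from the share alone. Both gauge genes had lower mean shares in iKO than in control in these types, and Irf7 had higher ones. Irf7 itself stood at 825 CPM in iKO and 115 in control monocytes/macrophages. The part of free RNA in the Irf7 shares was not tested.

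**Figure D4:**
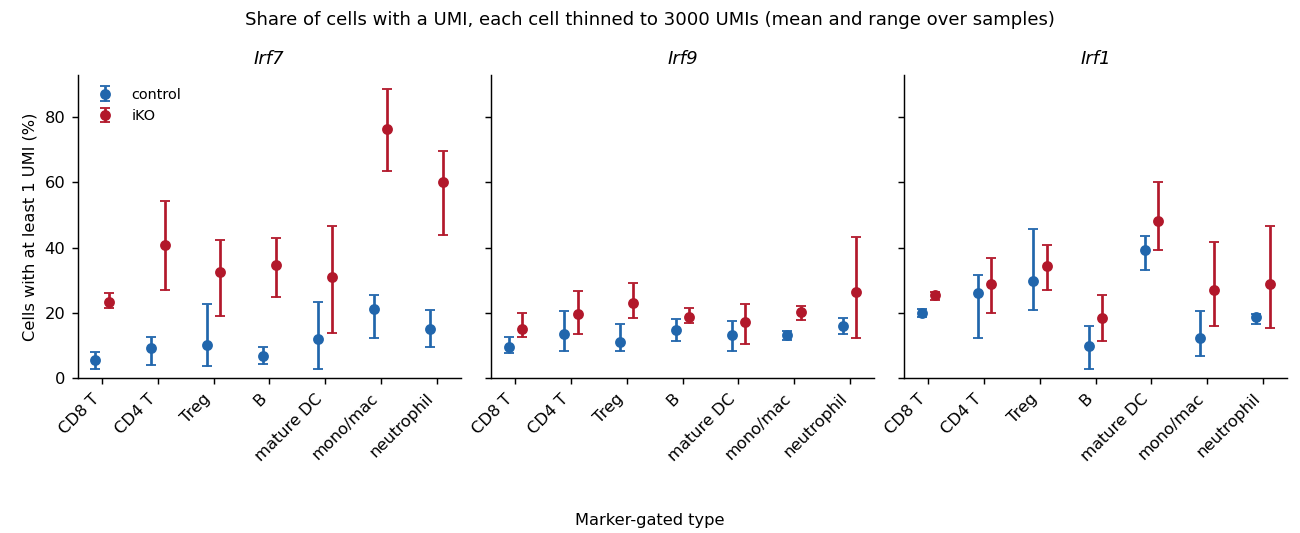
Share of cells with at least 1 UMI of Irf7, Irf9 or Irf1 (y axis, %) after thinning each cell to 3000 UMIs, by type (x axis), with the mean over samples as a point and the lowest and highest sample as bars. For Irf7 the bars of the genotypes are apart in CD8 T, CD4 T, B, monocyte/macrophage and neutrophil cells, and for Irf9 they are close in most types.

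Irf9, the DNA-binding subunit of ISGF3, rose by less. In CD8 T cells it read 42.7, 48.3, 55.2 and 61.4 CPM in iKO and 24.0, 20.1, 33.8 and 28.1 in control (0.96 ± 0.17, adjusted p = 0.0130). In monocytes/macrophages the values were 82.7, 82.9, 59.4 and 59.1 against 52.6, 46.6, 49.3 and 41.2 CPM (0.59 ± 0.14, adjusted p = 0.0325). The genotypes were apart in both types. The CD8 T call was lost without control sample 2 (adjusted p = 0.0512) and after thinning to 3000 UMIs (0.52, adjusted p = 0.285). The monocyte/macrophage call was lost without iKO sample 1 (0.0890), iKO sample 2 (0.0981), control sample 2 (0.0900), control sample 3 (0.0599) or control sample 4 (0.0917).

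In the sum of all kept cells Irf9 was 45.2 ± 2.46 CPM among controls and 63.3 ± 2.17 among iKO samples (SD, n = 4 each), with a log2 fold change of 0.49 ± 0.07 (SE, adjusted p = 0.0110). The 8 samples did not overlap and the call held in all 14 alternatives. The estimate was above 0 in all 7 tested types, between 0.36 in mature DC and 0.96 in CD8 T cells, including the 5 types where it did not pass. Neutrophils came closest of these, with 139, 121, 120 and 72.5 CPM in iKO and 52.2, 60.9, 77.0 and 54.5 in control (0.86 ± 0.24, adjusted p = 0.0867). They passed without iKO sample 4, the lowest of its group (adjusted p = 0.0275), and with stricter gates (0.0433). Treg passed after thinning (1.22, adjusted p = 0.0112), without control sample 1 (0.0178) and without a low-count filter (0.00742). CD4 T cells passed without a low-count filter (0.0267).

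Irf1, the interferon-gamma-responsive activator of antigen-processing genes, passed in CD8 T cells, with 107, 95.3, 82.5 and 98.2 CPM in iKO and 57.8, 59.2, 73.1 and 73.5 in control (0.56 ± 0.12, adjusted p = 0.0285). The groups did not overlap. The call was narrow: it was lost without any single sample other than iKO sample 3 (iKO sample 1, 0.0818; sample 2, 0.0941; sample 4, 0.0520; control sample 1, 0.0755; sample 2, 0.119; sample 3, 0.0549; sample 4, 0.0501) and after thinning (0.155).

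The Irf1 estimates in phagocytes were larger but their samples were spread out. Monocytes/macrophages read 242, 199, 72.7 and 61.8 CPM in iKO and 94.2, 28.5, 48.6 and 56.1 in control (1.33 ± 0.49, adjusted p = 0.106). Samples 1 and 2 of iKO were above every control sample and samples 3 and 4 were inside the control range. Neutrophils read 375, 272, 166 and 78.0 CPM in iKO against 77.8, 67.9, 75.8 and 90.8 in control (1.45 ± 0.37, adjusted p = 0.0563), so that 3 of the 4 iKO samples stood above all controls. Without iKO sample 4 the neutrophil adjusted p was 0.00259, with DESeq2 it was 0.0131, and without a low-count filter 7.62e-06. Mature DC read 276, 398, 205 and 214 CPM against 244, 195, 161 and 196, which overlapped.

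Irf2, the antagonist of Irf1 at the same promoters, had estimates of 0.16 to 0.36 in the 7 tested types, all above 0 and none past the threshold (adjusted p from 0.412 to 0.777). Its iKO and control samples overlapped in all 7. In monocytes/macrophages they read 284, 282, 180 and 174 CPM against 195, 182, 216 and 205.

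Irf8 passed in CD4 T cells, where it is a minor transcript: 66.3, 56.6, 171 and 100 CPM in iKO and 47.8, 31.5, 24.7 and 45.8 in control (1.44 ± 0.33, adjusted p = 0.0478). The samples did not overlap, but only 203 iKO and 94 control UMIs stood behind them. The summed level of 4 mature DC markers (Ccr7, Fscn1, Cacnb3, Ccl22) in the CD4 T profiles ran from 49.1 to 605 CPM in iKO and from 62.1 to 307 in control, and the 2 cDC1 markers from 0 to 32.0 and from 1.03 to 6.30. Both ranges overlapped between the genotypes. Of the mature DC markers 3 could be tested and 0 passed, no cDC1 marker could be tested, and their part in the result was not tested.

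The Irf8 call in CD4 T cells was lost with stricter gates (adjusted p = 0.0782), after thinning (0.369), with types from Leiden clusters (0.47, adjusted p = 0.474), and without iKO sample 1 (0.0543), iKO sample 3 (0.0735), iKO sample 4 (0.0940), control sample 2 (0.165), control sample 3 (0.158) or control sample 4 (0.0860). In CD8 T cells Irf8 split the iKO samples: samples 1 and 2 read 240 and 236 CPM and samples 3 and 4 read 63.4 and 85.5, against 238, 175, 174 and 160 in control (-0.23 ± 0.37, adjusted p = 0.811). In monocytes/macrophages the same iKO samples were the high ones, with 349 and 322 CPM against 158 and 151, and controls at 208, 140, 110 and 161 (0.66 ± 0.30, adjusted p = 0.185). Mature DC read 1236, 1492, 665 and 717 CPM in iKO and 779, 407, 579 and 367 in control (0.95 ± 0.29, adjusted p = 0.216). Neutrophils read 37.5, 68.5, 30.0 and 17.8 CPM against 13.7, 12.9, 21.6 and 18.8 (1.19 ± 0.39, adjusted p = 0.168). The neutrophil adjusted p was 0.0433 without iKO sample 4, which lay in the control range, and 0.0341 without a low-count filter. B cells, where Irf8 helps set the germinal centre programme, read 327, 253, 239 and 319 against 207, 182, 202 and 231 CPM, without overlap (0.50 ± 0.15, adjusted p = 0.0838).

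Where Irf8 defines the lineage it was nearly the same in both genotypes. The cDC1 samples read 1798, 1686, 1661 and 1562 CPM in iKO and 1833, 1700, 1410 and 1770 in control, with a fitted difference that rounded to 0.00 ± 0.10 (SE, adjusted p = 0.999). In pDC the means were 2990 and 2601 CPM (0.21 ± 0.16, adjusted p = 0.768), with the iKO samples inside the control range. These p-values do not show that the levels were equal.

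Irf5 in monocytes/macrophages showed no overlap beyond rounding, with 236, 233, 171 and 166 CPM in iKO and 166, 133, 147 and 148 in control (0.44 ± 0.13, adjusted p = 0.0652). It passed with DESeq2 (0.0264), without a low-count filter (0.0444), after thinning (0.0412), and without iKO sample 3 (0.0444) or iKO sample 4 (0.0399). In neutrophils it read 134, 76.3, 39.2 and 49.2 CPM against 31.1, 42.1, 20.4 and 30.5 (1.14 ± 0.35, adjusted p = 0.130). In CD8 T cells the estimate was below 0, with 8.59, 10.6, 10.1 and 11.5 CPM in iKO against 10.7, 13.7, 16.5 and 17.3 (-0.48 ± 0.19, adjusted p = 0.206). Neither of these passed, though the neutrophil value did without a low-count filter (0.0135).

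**Figure D5:**
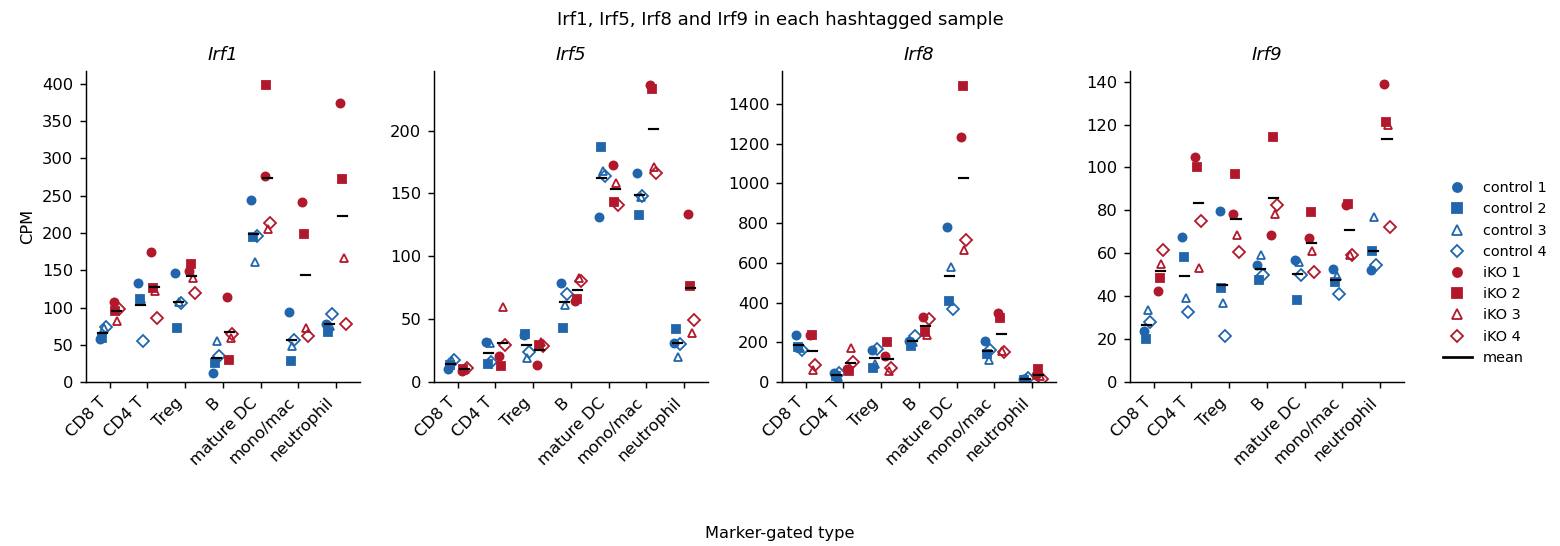
Level in CPM (y axis) of Irf1, Irf5, Irf8 and Irf9 in each hashtagged sample, by tested type (x axis), with control in blue, iKO in red, a symbol per sample number and a black line at the group mean. In monocytes/macrophages iKO samples 1 and 2 lie above iKO samples 3 and 4 for all 4 genes (Irf1 at 242 and 199 against 72.7 and 61.8 CPM), and Irf9 in CD8 T cells is apart between genotypes.

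Irf3, which shares its activating kinase with Irf7, did not pass in any type, with estimates from -0.40 in neutrophils to 0.46 in Treg. Its samples overlapped in all 7 types, for example 25.4, 26, 22.0 and 23.6 CPM in iKO and 24.4, 19.0, 21.0 and 21.2 in control monocytes/macrophages (0.18 ± 0.10, adjusted p = 0.267). Irf4 could be tested in 4 types and passed in none. In Treg, where it supports effector differentiation, it read 18.9, 17.7, 13.2 and 24.8 CPM in iKO and 14.1, 20.5, 15.8 and 21.3 in control (0.08 ± 0.26, adjusted p = 0.946). Mature DC had the highest estimate, with 28.2, 20.4, 28.9 and 30.0 CPM against 17.5, 19.1, 11.0 and 23.5 (0.58 ± 0.27, adjusted p = 0.409).

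Whether the genotype effect differed between the most abundant types was tested on the difference itself, log2(CPM + 1) in CD8 T cells minus monocytes/macrophages within each sample, by exact permutation over the 8 samples, two-sided and adjusted over the 8 genes. Irf8 had the largest difference, -1.06 (-0.47 in CD8 T cells and 0.59 in monocytes/macrophages, exact p = 0.0286, adjusted 0.229), followed by Irf5 with -0.88 (exact p = 0.0571, adjusted 0.229). For Irf7 the difference was -0.45 (exact p = 0.429, adjusted 0.571) and for Irf9 it was 0.40 (exact p = 0.257, adjusted 0.503). None passed after adjustment, which does not show that the effects were alike.

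The other genes of the pathway were counted from lists of sensors, ligands, receptors, partners and targets. Beside these counts stands the share of all tested genes that changed in either direction. It was 10.5% in monocytes/macrophages, 3.82% in CD8 T cells, 3.11% in B cells and 2.96% in neutrophils. In Treg it was 2.36%, in CD4 T cells 1.46% and in mature DC 0.265%. Among 22 sensors and adaptors upstream of Irf3, Irf5 and Irf7, 10 of 22 tested rose in monocytes/macrophages and 0 fell, with a median log2 fold change of 0.48 against 0.00 for all genes. They included Tlr9, an endosomal DNA receptor (1.84 ± 0.36, adjusted p = 0.0173), Ddx58, which encodes RIG-I (1.79 ± 0.28, 0.00897), Ifih1, which encodes MDA5 (1.75 ± 0.36, 0.0209), and Tlr3 (1.21 ± 0.33, 0.0479). Tlr9 and Tlr3 were low there, with means of 5.88 and 8.77 CPM in iKO and 1.77 and 4.01 in control. The part of RNA from other cells in these 2 values was not tested. Only Ifih1 and Ddx58 of the list rose in CD8 T cells (2 of 17 tested), in Treg (2 of 13) and in neutrophils (2 of 13), and 0 passed in CD4 T cells (of 12), B cells (of 6) and mature DC (of 12).

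Of the 5 ligand genes, at most 2 could be tested in a type. Ifng, made by T and NK cells, rose in the monocyte/macrophage profile from 2.44 ± 0.664 to 8.22 ± 1.00 CPM (1.83 ± 0.21, adjusted p = 0.00368). The summed level of Cd3d, Cd3e and Cd3g in these profiles was 31.6 to 44.5 CPM in iKO and 20.3 to 27.6 in control, with 1 of 3 passing, and their part in the Ifng value was not tested. In the receptor, kinase and STAT list, Stat2, a partner of Irf9, rose in CD8 T cells (0.64 ± 0.15, adjusted p = 0.0404), monocytes/macrophages (1.64 ± 0.36, 0.0247) and neutrophils (2.04 ± 0.31, 0.00235). Usp18, a feedback inhibitor of the type I receptor, rose in CD8 T, CD4 T, Treg, monocyte/macrophage and neutrophil profiles, by 2.41 to 3.46.

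The list of partners and corepressors held 10 genes, among them cofactors of Irf4 and Irf8 and the Irf2-binding proteins. Spi1, which encodes PU.1 (0.57 ± 0.15, adjusted p = 0.0464), and Ikzf1 (0.61 ± 0.15, 0.0317) rose in monocytes/macrophages. These were 2 of 9 tested, against 10.5% of all genes there, and are not read as a result about the list. In the other 6 tested types 0 passed.

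Of the target lists, the ISGF3- and Irf7-associated one held most of the changes. All 8 tested targets rose in CD8 T cells and in neutrophils, 6 of 8 in monocytes/macrophages, 6 of 7 in Treg, 5 of 6 in CD4 T cells, 2 of 2 in B cells and 1 of 8 in mature DC, with medians of 2.00 to 2.83 where the median of all genes was -0.02 to 0.00. The mature DC gene was Isg15 (2.20 ± 0.33, adjusted p = 0.0173). The medians of the Irf1-associated list, mostly antigen-processing genes, were 0.19 to 1.48, and its counts were 4 of 7 in CD8 T cells, where Irf1 passed, 6 of 8 in neutrophils, 3 of 5 in B cells, 2 of 9 in monocytes/macrophages, and 0 in CD4 T cells (of 7), Treg (of 7) and mature DC (of 9). Examples were Gbp2 in neutrophils (3.13 ± 0.34, adjusted p = 0.000297), Tap1 in B cells (0.96 ± 0.17, 0.000845) and Psmb8, an immunoproteasome subunit, in CD8 T cells (0.46 ± 0.08, 0.0119). The 2 of 9 Irf1-associated genes in monocytes/macrophages stood against 10.5% of all genes there and are not read as a result about the list. The lists were chosen with earlier results of these data known, so their counts are a description.

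Finally, each member's pattern was set beside that of 8955 other genes over 22 points, the 11 types in each genotype, as Pearson's r of mean log2(CPM + 1). The points share libraries and types, and those of Irf7 also carry the genotype difference, so r is a description. Irf7 was most like Usp18 (r = 0.91), Ifit2 (0.87) and Irgm1 (0.84), and Irf9 was most like Trim30a (0.81), Trim30d (0.81) and Irf7 itself (0.77). Irf1 was most like H2-D1 (0.92), B2m (0.82) and Clec2d (0.80), which contains 2 class I antigen-presentation genes. Irf8 was most like Tlr12 (0.87), Irf5 like Tns3 (0.93), Irf2 like Zcchc2 (0.87), Irf3 like Ttc14 (0.94) and Irf4 like Rfx5 (0.82). Among the members themselves, r was 0.77 for Irf7 with Irf9, 0.53 for Irf1 with Irf7, -0.58 for Irf2 with Irf8 and -0.62 for Irf3 with Irf5.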

How the data were processed

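The deposited files hold raw UMI counts in whole numbers, a matrix for each hashtagged sample, from 10x 3' v3 libraries with TotalSeqA hashtags. They were made with Cell Ranger 7.1.0 per the file headers, on GRCm39 per the submitters' processing notes. How barcodes were assigned to hashtags is not given in the sources used here. A check of the hashtag counts found the sample's own highest in every barcode except 3 of 1362 in iKO sample 3.

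Cells with at least 300 genes and at most 10% mitochondrial counts were kept (1241 removed), and 439 with a Scrublet score over 0.25 (scanpy 1.11.5) were removed as doublets. A gate needed at least 6 UMIs of its lineage markers and at most 3 of any other lineage, and these numbers were set after the data were seen. UMIs were summed per sample and type and tested with edgeR 4.0.16 (R 4.3.3; TMM, filterByExpr, quasi-likelihood test, Benjamini-Hochberg adjustment over all genes of a type). On simulated data with 200 genes changed 4-fold, 83% (B cells, 2987 genes) to 97% (monocytes/macrophages, 11580 genes) were recovered within types. Of the genes called, 2.17% (CD4 T cells) to 6.52% (Treg) were false. A 4-fold change is larger than any estimate of a member other than Irf7 in the tested types. The figures therefore do not gauge recovery of those smaller differences.

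The text names all 8 members, up to 4 changed genes per list and type by size of change, and for each member up to 3 genes with the most similar pattern; some genes are not reported here. Members and lists were chosen with earlier results of these data known. Alternatives were DESeq2 1.42.0, other size factors, no filter, sample number as a block, leaving out each sample, thinning to 3000 UMIs, stricter gates, Leiden clusters (leidenalg 0.10.2) and no doublet removal. Counting error limits low genes. Between samples of a group, chi-square divided by its degrees of freedom was 8.15 to 231, so no sample was a duplicate of another. It was 25.4 between iKO samples 1 and 2, 8.15 between iKO samples 3 and 4, and 102 to 231 across these pairs. Control pairs ran from 22.1 to 104. What set the iKO pairs apart was not tested.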

Additional observations from a re-analysis of the deposited data

Results flagged for a closer look

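Among 128 groups of 4 samples (8 genes, 8 profiles, 2 genotypes), 5 held 1 sample far from the other 3. Chance flags about 1 in 20 groups, so 5 of 128 is no more than chance would give. In Treg, control sample 1 read 261 CPM of Irf2 where the others read 140 to 152, and 70.5 CPM of Irf7 where the others read 18.0 to 26. In neutrophils, iKO sample 4 read 208 CPM of Irf2 against 268 to 272, and 1.37 CPM of Irf4, from 1 UMI, against 0. In the sum of all kept cells, control sample 4 read 144 CPM of Irf5 against 93.6 to 98.9.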

How the results depend on the processing

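The number of IRFs called was 2 in all cells and 1 in B cells under every alternative run. Elsewhere it moved with single genes near the threshold. For CD8 T cells (3 in the main analysis) it was 1 after thinning to 3000 UMIs, and 1 to 3 when a sample was left out. For CD4 T cells (2) it was 1 with sample number as a replicate block, after thinning, with stricter gates and with Leiden clusters, 3 without a filter, and 1 to 2 when a sample was left out. For Treg (1) it was 2 without a low-count filter and after thinning, and 0 to 2 when a sample was left out. For mature DC (0) it was 1 with DESeq2 and 2 without a filter. For monocytes/macrophages (2) it was 3 with DESeq2, without a filter and after thinning, and 1 to 3 when a sample was left out. For neutrophils (1) it was 2 with DESeq2, with the replicate block and with stricter gates, 4 without a filter, and 1 to 4 when a sample was left out, with 4 only without iKO sample 4. No called value changed direction, and 121 values without a call changed sign under some alternative. The cause of these moves was not tested.

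The values did not settle whether sample numbers pair the samples. Deviations of same-numbered samples correlated at 0.60, 0.34, 0.07 and 0.67, and those of other numbers at -0.69 to 0.68. Control samples 2, 3 and 4 correlated best with their own number (0.34, 0.07 and 0.67). In contrast, iKO samples 2 and 3 correlated best with another number (0.68 and 0.52). With the block, Irf8 in CD4 T cells was not called (1.39, adjusted p = 0.0749) and Irf5 in neutrophils was (1.12, 0.0344); no other IRF call in the tested types changed. Cells and UMIs limit NK, pDC, cDC1 and cDC2, and no other alternative was run for NK, pDC and cDC1. For cDC2 only the Leiden class was also fitted, where 274 of 8917 genes were called, and its IRF values are not given here. Genotype and pool cannot be told apart anywhere.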
